A study of Mus musculus with 4 samples.

Results

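Transcripts of 48 genes of autophagy and of the lysosome were followed in C2C12 myoblasts, a mouse line of satellite cells from thigh muscle, after exposure to the saturated fatty acid palmitate. The genes were taken by function from textbook membership of the pathway, with earlier results of these data known. They are 28 genes of the autophagy machinery, 3 genes of the MiT/TFE transcription factors and 17 lysosome genes. All 48 were among the 13666 genes that could be tested. RNA of 4 palmitate-treated cultures (0.1 mmol/l for 48 h, bound to albumin, in medium with 5% serum) was compared with RNA of 4 control cultures harvested on day 3 of proliferation on 4 arrays with 2 colours. Each array held 1 palmitate-treated culture labelled with Cy5 and 1 control culture labelled with Cy3. In one field the labels give the control medium as untreated and with 10% serum, written 10%HS. The treatment protocol gives it the same 5% serum (FBS), ethanol and albumin as the palmitate medium. If the first entry is right, a difference in the amount or kind of serum cannot be told apart from palmitate. No array had its dyes swapped, and the effect of a dye on a probe cannot be told apart from that of palmitate. All cultures are of a single established line, and RNA levels do not measure the flow of material through autophagosomes.

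In macroautophagy, a kinase complex around Ulk1 starts the process, and a lipid kinase complex around Becn1 and Pik3c3 marks the forming membrane with phosphatidylinositol 3-phosphate. Wipi proteins bind this lipid, and a cascade of ligase-like Atg proteins attaches small Atg8 proteins (the LC3 and Gabarap families) to the membrane, where receptors such as Sqstm1 (p62) bring the cargo. The vesicle then fuses with a lysosome, whose hydrolases work in an acid lumen kept by a proton pump. Tfeb, Tfe3 and Mitf are transcription factors that bind an E-box at many lysosomal genes, and muscle uses the pathway to remove proteins and mitochondria.

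On each array the log2 ratio of palmitate over control was taken per probe after background correction and loess normalisation of the dyes, and limma tested whether its mean over the arrays differed from 0, with p-values adjusted after Benjamini-Hochberg over all 24055 tested probes. A gene is given by its brightest probe, unless another probe is named. The log2 signals are those of each channel after normalisation between the arrays. The lowest adjusted p of any probe was 0.108, and 0 of the 48 genes passed an adjusted p of 0.05 in limma, as did 0% of all tested genes. Before adjustment, 2585 probes had a p under 0.05 and were higher, and 2664 were lower. Angptl4 and Cpt1a, known to respond to fatty acids, had log2 ratios of 1.48 ± 0.24 and 1.27 ± 0.19 (SD, n = 4), and the reference gene Rpl13a had -0.017 ± 0.12 (SD, n = 4). Of all gene probes, 61.8 to 70.7% were well above background in the palmitate channel and 57.5 to 64.0% in the control channel. All 8 myoblast markers were above background, as were 8 of 12 markers of myotubes, 2 of 7 of adipocytes and 2 of 6 of endothelial cells. Of macrophage markers with a named probe, 4 of 7 were (Adgre1, Csf1r, Fcer1g and Itgam), and Ptprc, Lyz2 and Tyrobp were not. Mean log2 signals of these 4 in palmitate-treated cultures ran from 7.44 (Adgre1) to 14.9 (Itgam). Of the 8 myotube markers above background, 6 had a mean above 0 and 2 below, with log2 ratios from -0.078 (Acta1) to 0.32 (Myh3), and 2 had an unadjusted p under 0.05 in limma, Myog and Myh3. Of the 8 myoblast markers, 7 had a mean above 0, and 3 had such a p, Vim, Ncam1 and Myod1, all higher. The part of these markers in the results was not tested.

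Replicate 1 stood apart. Its ratios correlated at -0.076 with the mean of the other arrays over all tested probes (probes are no independent replicates). Replicates 2 to 4 correlated with each other at 0.68 to 0.77. Angptl4 and Cpt1a were still higher with palmitate on 4 of 4 arrays, replicate 1 included, with lowest log2 ratios of 1.27 and 1.01. Among the 48 genes, replicate 1 correlated with replicates 2, 3 and 4 at 0.32, 0.044 and -0.078, and those arrays with each other at 0.73 to 0.80. In 23 of the 48 genes (47.9%) the sign on replicate 1 was opposite to that of the mean of replicates 2 to 4, a share close to that of all tested genes (46.6%). Calls are therefore given with and without replicate 1. Without it, 4319 of the 24055 probes passed the adjusted p in limma. Replicate 1 was singled out because it disagreed with the others, so the arrays kept are those that agree. The p-values without it can therefore be too small, and they describe replicates 2 to 4 only. With replicate 2, 3 or 4 left out instead, 0 of the 48 genes passed the adjusted p in limma.

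The promoters were examined because the MiT/TFE factors are known to read an E-box there. RefSeq promoters (build GRCm38.p6, 250 bases before to 50 after each start) were at hand for 40 of the 48 genes. CACGTG, the core of the E-box, which is its own reverse complement, was in at least 1 promoter of 14 of these 40 genes (35%), of 5 of 22 genes of the machinery (22.7%), of 9 of 15 lysosome genes (60%) and of 0 of the 3 MiT/TFE genes. The share was 8.09% in all genes of the table and 11.0% in the tested genes. The longer TCACGTGA, also its own reverse complement, contains CACGTG and was in 6 of the 40 genes (15%), against 1.12% of all genes and 2.01% of tested genes. GTAAACA, a motif of FoxO and other forkhead factors, was searched for on both strands (TGTTTAC on the other) and matched in 0 of the 40 genes, against 4.05% of all genes and 3.24% of tested genes. A match is a description of the letters and does not show a bound site. The 6 promoters with TCACGTGA are printed 5′ to 3′ on the strand of the gene, because they carry the longest match to the motif; capitals mark TCACGTGA.
Atg3, chr16:45158579-45158878, plus strand: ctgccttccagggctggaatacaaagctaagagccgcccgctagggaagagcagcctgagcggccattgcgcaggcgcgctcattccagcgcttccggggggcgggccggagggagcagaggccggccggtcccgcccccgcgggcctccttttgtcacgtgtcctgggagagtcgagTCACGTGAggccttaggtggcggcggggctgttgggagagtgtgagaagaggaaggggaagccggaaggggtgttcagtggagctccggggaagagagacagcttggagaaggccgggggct
Atp6v0d1, chr8:105566015-105566314, minus strand: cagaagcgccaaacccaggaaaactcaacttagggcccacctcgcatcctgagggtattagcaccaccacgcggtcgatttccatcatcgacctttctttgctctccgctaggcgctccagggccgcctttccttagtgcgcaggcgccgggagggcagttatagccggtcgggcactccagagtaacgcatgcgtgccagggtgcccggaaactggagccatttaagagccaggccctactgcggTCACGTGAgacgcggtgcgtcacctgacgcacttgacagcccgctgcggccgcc
Atp6v1a, chr16:44139210-44139509, minus strand: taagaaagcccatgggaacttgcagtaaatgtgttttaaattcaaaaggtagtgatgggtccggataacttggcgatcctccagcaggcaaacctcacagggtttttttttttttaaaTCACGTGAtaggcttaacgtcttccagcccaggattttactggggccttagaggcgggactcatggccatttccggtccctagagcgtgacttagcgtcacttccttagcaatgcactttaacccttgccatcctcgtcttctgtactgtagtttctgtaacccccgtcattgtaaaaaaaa
Ctsa, chr2:164833523-164833822, plus strand: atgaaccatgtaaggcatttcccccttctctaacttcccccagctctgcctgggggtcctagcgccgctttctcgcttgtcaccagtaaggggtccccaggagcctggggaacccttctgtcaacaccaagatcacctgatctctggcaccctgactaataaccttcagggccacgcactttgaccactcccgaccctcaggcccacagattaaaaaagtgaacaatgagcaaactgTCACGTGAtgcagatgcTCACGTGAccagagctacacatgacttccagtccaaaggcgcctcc
Ctsd, chr7:142387778-142388077, minus strand: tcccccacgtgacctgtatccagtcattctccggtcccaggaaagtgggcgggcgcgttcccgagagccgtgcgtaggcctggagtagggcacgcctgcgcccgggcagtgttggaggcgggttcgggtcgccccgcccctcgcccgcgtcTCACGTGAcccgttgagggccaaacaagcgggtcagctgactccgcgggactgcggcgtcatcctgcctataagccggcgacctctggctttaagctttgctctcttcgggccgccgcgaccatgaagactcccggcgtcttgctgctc
Mcoln1, chr8:3500269-3500568, plus strand: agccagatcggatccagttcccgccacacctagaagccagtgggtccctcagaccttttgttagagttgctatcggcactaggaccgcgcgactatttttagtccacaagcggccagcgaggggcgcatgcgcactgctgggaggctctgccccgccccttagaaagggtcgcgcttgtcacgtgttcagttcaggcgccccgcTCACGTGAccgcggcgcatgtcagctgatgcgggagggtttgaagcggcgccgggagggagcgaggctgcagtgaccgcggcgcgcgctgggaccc
The motif began 72 bases before the start of Atg3, 4 before that of Atp6v0d1, 132 before that of Atp6v1a, 99 before that of Ctsd and 46 before that of Mcoln1. Ctsa held it at 2 places, 13 bases before the start and at base 5, counted from the start as base 1. The log2 ratios of these genes lay on both sides of 0. They were 0.74 ± 0.60 (SD, n = 4) for Atg3, 0.015 ± 0.39 (SD, n = 4) for Atp6v0d1, 0.19 ± 0.28 (SD, n = 4) for Atp6v1a, 0.13 ± 0.23 (SD, n = 4) for Ctsa, -0.22 ± 0.12 (SD, n = 4) for Ctsd and -0.56 ± 0.29 (SD, n = 4) for Mcoln1.

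Across the 48 genes, the shifts went in both directions. At an unadjusted p under 0.05, 8 genes were higher with palmitate, where 10.8% of all tested genes were, and 10 were lower, where 13.3% were. Together this was 18 of 48 (37.5%), against 24.1% of all tested genes, a difference that did not hold in every setting. The ratio was above 0 on 4 of 4 arrays in 7 genes (15.7% of all tested genes) and below 0 on 4 of 4 in 10 (16.8%). Bnip3l is among these 10 by its brightest probe only, and its other probes had means above 0. Signals of the palmitate and control cultures did not overlap in 2 genes that were higher, Sqstm1 and Bnip3 (5.38% of all tested genes), and in 7 that were lower, Ulk1, Atg14, Wipi1, Atg4b, Tfeb, Mcoln1 and Ctsd (8.4%). The fold was at least 1.5 in 4 genes, Atg3, Sqstm1, Atp6v1h and Gabarap, and at least 1.6 in 2, Atg3 and Gabarap. Without replicate 1, 7 genes passed the adjusted p in limma as higher, Becn1, Uvrag, Atg3, Sqstm1, Nbr1, Ctsl and Atp6v1h (8.74% of all tested genes), and 5 as lower, Atg14, Wipi1, Map1lc3a, Gabarap and Mcoln1 (9.83%). The counts of 8 and 10 genes are 16.7% and 20.8% of the 48, and those without replicate 1 are 14.6% and 10.4%. Most of these shares lie above those of all genes by a few genes, and the share without replicate 1 on the lower side is close to that of all genes. The 48 genes were also brighter, with a median log2 intensity of 11.5 (12.6 for the lysosome genes), against 10.3 for all tested genes. The part of brightness in the shares and medians was not tested.

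Of the 28 genes of the machinery, 6 were higher and 7 lower by the same unadjusted threshold (46.4%, against 24.1% of all tested genes). Their median log2 ratio was -0.12. On replicates 1 to 4 the median was -0.059, -0.018, 0.012 and -0.16, so it lay on both sides of 0. Of the 17 lysosome genes, 2 were higher and 2 lower (23.5%), a share close to that of all tested genes. Their median was 0.033, with array medians of -0.052, -0.0046, 0.18 and 0.0026. The median of all tested genes was 0.0016. The counts and medians moved with the dye normalisation and the pairing. Where each channel was instead shifted to its 75th percentile, with no dye normalisation and the unpaired test of the methods, 14 of the 48 genes were higher (17.2% of all tested genes) and 4 lower (17.6%). Relative to all genes, the direction of the machinery's median turned in that setting (0.079) and the median of the lysosome genes was 0.25. Median centring in place of loess left 0 genes higher (0.512% of all tested genes) and 0 lower (0.790%), with medians of -0.0027 and 0.18. With the pairing by array left out, 0 genes were higher (0.681%) and 2 lower (2.58%), so nearly all 18 calls ended in both of these settings.

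**Figure D1:**
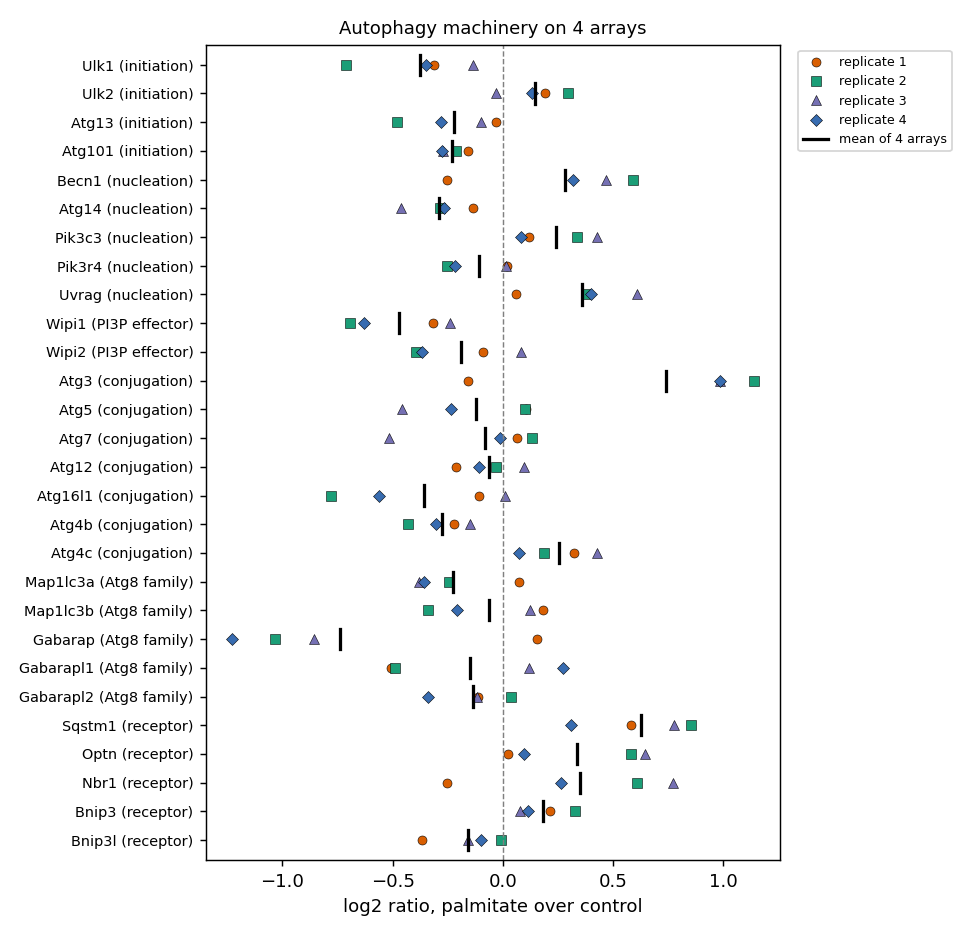
Palmitate over control as a log2 ratio (x axis) of the 28 genes of the autophagy machinery (y axis, with their role), with a point for each of the 4 arrays and a bar for the mean. On 4 of 4 arrays, 6 genes lie to the right of 0 (Sqstm1, Uvrag, Pik3c3, Optn, Bnip3 and Atg4c) and 7 to the left (Ulk1, Atg13, Atg101, Atg14, Wipi1, Atg4b and Bnip3l). Each gene is shown by its brightest probe, and the other probes of Bnip3l have means above 0. Replicate 1 of Atg3 and Gabarap lies on the other side of 0 from the other arrays.

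Of the 4 genes of the initiation complex, 3 were lower with palmitate on 4 of 4 arrays, as were 16.8% of all tested genes. Ulk1, the kinase that starts autophagosome formation, had log2 signals of 13.04, 12.70, 13.29 and 13.27 in the palmitate-treated cultures of replicates 1 to 4, against 13.35, 13.41, 13.43 and 13.62 in the control cultures. Every palmitate-treated culture was below every control culture. The log2 ratio was -0.38 ± 0.24 (SD, n = 4), which limma did not call (adjusted p = 0.144, and 0.0695 without replicate 1). Atg101, a partner in the complex that steadies Atg13, had log2 ratios of -0.16, -0.21, -0.27 and -0.28, close to each other on the 4 arrays (mean -0.23 ± 0.057, SD, n = 4, adjusted p = 0.166 from limma). Atg13, the scaffold of the complex, had -0.22 ± 0.20 (SD, n = 4), also below 0 on 4 of 4 arrays. Under the 75th percentile shift these 3 genes stayed below 0 relative to all genes but were closer to it (-0.17 for Ulk1, -0.045 for Atg101 and -0.043 for Atg13). The kinase Ulk2, a close relative of Ulk1, had 0.15 ± 0.14 (SD, n = 4) and was above 0 on 3 of 4.

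The genes of the nucleation step split. Uvrag, a partner of Beclin 1 in a lipid kinase complex of endosomes, had log2 signals of 11.19, 11.60, 11.78 and 11.69 in palmitate-treated cultures, against 11.13, 11.22, 11.17 and 11.29 in control cultures. Its palmitate-treated culture of replicate 1 lay within the range of the controls and the other palmitate-treated cultures lay above all of them. The log2 ratio was 0.36 ± 0.23 (SD, n = 4, adjusted p = 0.145 in limma), and without replicate 1 Uvrag rose by 0.46 (adjusted p = 0.0207). Becn1, which encodes Beclin 1, the core of the complex, had log2 ratios of -0.25, 0.59, 0.47 and 0.32. It was below 0 only on replicate 1, with a mean of 0.28 ± 0.37 (SD, n = 4, adjusted p = 0.312 in limma), and rose by 0.46 without that array (adjusted p = 0.0219). Pik3c3, the lipid kinase itself, had log2 ratios of 0.12, 0.33, 0.43 and 0.081, all above 0 (mean 0.24 ± 0.17, SD, n = 4, adjusted p = 0.207 in limma). Its other probe had 0.34 ± 0.26 (SD, n = 4).

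Atg14, which directs the complex to the site where autophagosomes form, lay on the other side of 0. Its log2 signals were 10.23, 10.08, 9.96 and 9.98 in palmitate-treated cultures, against 10.37, 10.37, 10.42 and 10.25 in control cultures, without overlap. The log2 ratio was -0.29 ± 0.13 (SD, n = 4, adjusted p = 0.148 in limma), and without replicate 1 Atg14 fell by 0.34 on the log2 scale (adjusted p = 0.0467). Uvrag and Atg14 are known to bind Beclin 1 in separate complexes, and here their ratios had opposite signs on 4 of 4 arrays. The regulatory subunit Pik3r4 had -0.11 ± 0.15 (SD, n = 4), with 2 arrays on each side of 0.

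Wipi1, a protein that binds the lipid made by this kinase, had log2 signals of 11.20, 11.03, 11.20 and 10.86 in palmitate-treated cultures, against 11.52, 11.72, 11.44 and 11.49 in control cultures. The groups did not overlap, and the log2 ratio was -0.47 ± 0.22 (SD, n = 4, adjusted p = 0.120 in limma). Without replicate 1 it fell by 0.52 on the log2 scale (adjusted p = 0.0255). The second, dimmer probe of Wipi1 had -0.19 ± 0.13 (SD, n = 4), also below 0 on 4 of 4 arrays. Wipi2, which recruits Atg16l1 to the membrane, had -0.19 ± 0.23 (SD, n = 4) and was below 0 on 3 of 4.

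In the conjugation cascade, Atg3 had the highest log2 ratio of the 48 genes. Atg3, the E2-like enzyme that transfers Atg8 proteins to the lipid, had log2 signals of 10.67, 12.08, 11.81 and 12.06 in palmitate-treated cultures, against 10.82, 10.93, 10.82 and 11.08 in control cultures. In replicates 2 to 4 the palmitate-treated cultures were well above all controls, while that of replicate 1 was below all of them. The log2 ratios were -0.16, 1.14, 0.99 and 0.99, a mean of 0.74 ± 0.60 (SD, n = 4, adjusted p = 0.147 in limma). Without replicate 1, Atg3 rose by 1.04 on the log2 scale (adjusted p = 0.00210), with an SD over 3 arrays of 0.090.

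The other conjugation genes had smaller ratios. Atg4b, a protease that trims the Atg8 proteins, had log2 signals of 9.29, 9.32, 9.38 and 9.17 in palmitate-treated cultures, against 9.51, 9.75, 9.52 and 9.47 in control cultures, again without overlap. Its log2 ratio of -0.27 ± 0.12 (SD, n = 4) did not pass (adjusted p = 0.151 in limma, and 0.0780 without replicate 1). Atg4c, a related protease, had log2 ratios of 0.32, 0.19, 0.43 and 0.076, all above 0 (mean 0.25 ± 0.15, SD, n = 4, adjusted p = 0.185 in limma), and its other probe was also above 0 on 4 of 4 arrays. Both enzymes thus had an unadjusted p under 0.05, with opposite signs. Atg16l1, the part of the ligase complex that places it on the membrane, had log2 ratios of -0.11, -0.78, 0.010 and -0.56 and was close to 0 on replicate 3 (mean -0.36 ± 0.37, SD, n = 4, adjusted p = 0.227 in limma). Atg5, Atg7 and Atg12, the other parts of the cascade, had means of -0.12 ± 0.28 (SD, n = 4), -0.082 ± 0.29 (SD, n = 4) and -0.063 ± 0.13 (SD, n = 4), each with arrays on both sides of 0. Under the 75th percentile shift these 3 were above 0 relative to all genes (0.042, 0.083 and 0.12). Second probes of Atg12 and Atg7 lay below 0 on 4 of 4 arrays, that of Atg12 at -0.27 ± 0.13 (SD, n = 4, adjusted p = 0.159 in limma, and 0.0513 without replicate 1) and that of Atg7 at -0.27 ± 0.29 (SD, n = 4, adjusted p = 0.265, and 0.143).

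All 5 genes of the Atg8 family had a mean below 0, as did 6802 of all 13666 tested genes. Under median centring 2 of the 5 and under the 75th percentile shift 3 of the 5 were above it, relative to all genes. Gabarap had the lowest log2 ratio of the 48 genes. Its log2 signals were 14.44, 13.42, 13.47 and 13.03 in palmitate-treated cultures, against 14.28, 14.45, 14.33 and 14.26 in control cultures, so that replicate 1 lay with the controls and the others far below them. The log2 ratio was -0.74 ± 0.62 (SD, n = 4, adjusted p = 0.151 in limma), and without replicate 1 it fell by 1.04 on the log2 scale (adjusted p = 0.00316). A second, dimmer probe of Gabarap did not show this, with 0.12, -0.30, 0.21 and -0.37 on replicates 1 to 4 and a mean of -0.086 ± 0.29 (SD, n = 4).

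Map1lc3a, which encodes LC3A, had log2 ratios of 0.072, -0.24, -0.38 and -0.36, and without replicate 1 it fell by 0.33 on the log2 scale (adjusted p = 0.0460 in limma, 0.256 with all arrays). Map1lc3b, which encodes LC3B, the usual marker of autophagosomes, had log2 ratios of 0.18, -0.34, 0.12 and -0.21, with 2 arrays on each side of 0. Its mean of -0.060 ± 0.25 (SD, n = 4) was smaller than its SD, and its sign turned under median centring (0.033 relative to all genes) and the 75th percentile shift (0.11). Gabarapl1, which with LC3B is a known FoxO target in muscle, had log2 ratios of -0.51, -0.49, 0.12 and 0.27 and a mean of -0.15 ± 0.41 (SD, n = 4). Its sign turned under the same settings (0.022 and 0.13). Gabarapl2 had -0.13 ± 0.15 (SD, n = 4) and was below 0 on 3 of 4 arrays, but above it under the 75th percentile shift (0.046).

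**Figure D2:**
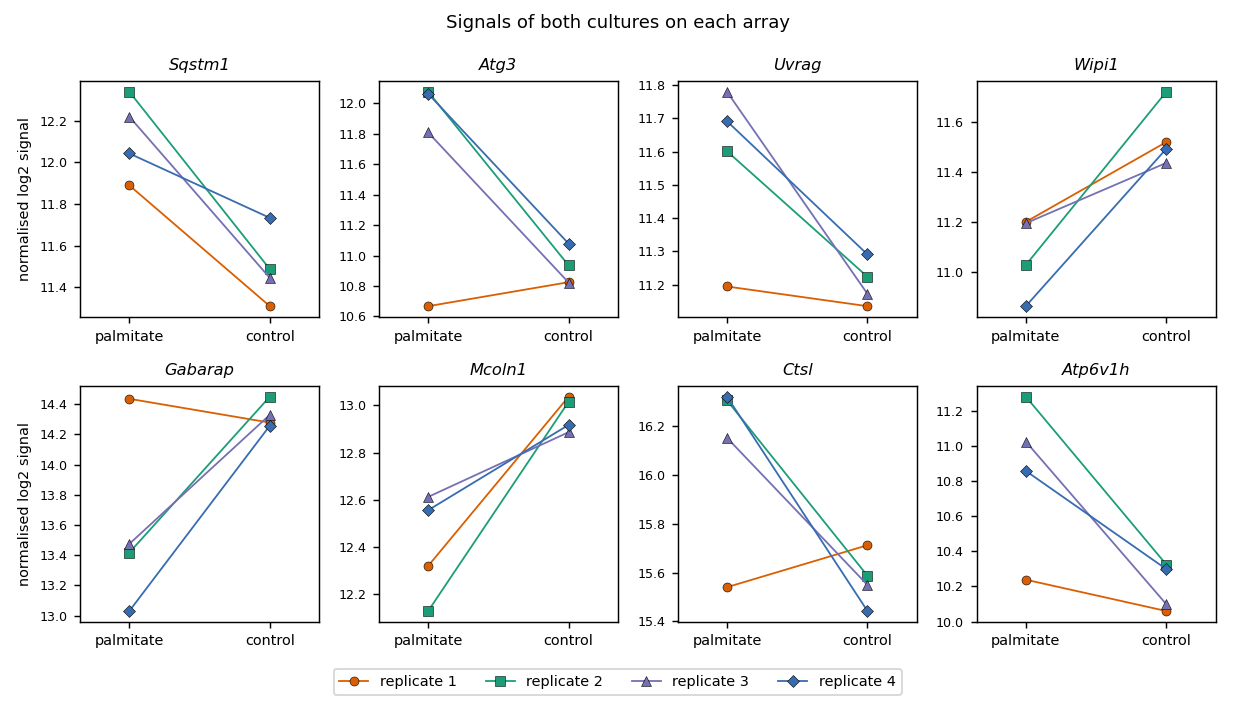
Normalised log2 signal (y axis, a scale of its own for each gene) of the palmitate-treated and the control culture on each of the 4 arrays, joined by a line per array, for 8 genes. Sqstm1, Wipi1 and Mcoln1 differ in the same direction on every array without overlap, while in Atg3, Gabarap and Ctsl replicate 1 runs against replicates 2 to 4.

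Among the cargo receptors, Sqstm1 had the lowest unadjusted p of the 48 genes. Sqstm1, which encodes p62, a receptor of ubiquitinated cargo that is itself degraded by autophagy, had log2 signals of 11.89, 12.34, 12.22 and 12.04 in palmitate-treated cultures, against 11.31, 11.49, 11.44 and 11.73 in control cultures. Each palmitate-treated culture was above every control culture, replicate 1 included. The log2 ratios were 0.58, 0.85, 0.78 and 0.31, a mean of 0.63 ± 0.24 (SD, n = 4) or 1.55-fold (adjusted p = 0.118 in limma). Without replicate 1 it rose by 0.65 on the log2 scale (adjusted p = 0.0180).

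Other receptors of ubiquitinated cargo had ratios of the same sign on replicates 2 to 4. Optn, which encodes optineurin, had log2 ratios of 0.025, 0.58, 0.65 and 0.095 (mean 0.34 ± 0.32, SD, n = 4, adjusted p = 0.212 in limma, and 0.0550 without replicate 1). Nbr1, a relative of p62, had -0.25, 0.61, 0.77 and 0.27, with replicate 1 opposite to the others. Its mean was 0.35 ± 0.45 (SD, n = 4, adjusted p = 0.289 in limma), and it rose by 0.55 without replicate 1 (adjusted p = 0.0235).

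The receptors of mitochondria gave smaller ratios on their brightest probes. Bnip3 had log2 signals of 12.94, 13.16, 12.89 and 12.94 in palmitate-treated cultures, against 12.73, 12.83, 12.81 and 12.83 in control cultures, without overlap but close together, with a log2 ratio of 0.18 ± 0.11 (SD, n = 4, adjusted p = 0.257 in limma). Its 2 other probes had 0.097 ± 0.15 and 0.068 ± 0.15 (SD, n = 4). Bnip3l, which encodes its relative Nix, had -0.36, -0.0080, -0.16 and -0.098 on its brightest probe (mean -0.16 ± 0.15, SD, n = 4, adjusted p = 0.347 in limma). Its 3 other probes had the opposite sign on 4 of 4 arrays, with means of 0.37 ± 0.17, 0.32 ± 0.14 and 0.31 ± 0.24 (SD, n = 4), so the direction of this gene depends on the probe. None of the 4 probes passed with all arrays in limma (adjusted p of 0.129, 0.132 and 0.184 for the other 3), and without replicate 1 those with means of 0.32 and 0.31 rose by 0.37 and 0.40 on the log2 scale (adjusted p = 0.0363 and 0.0473). The brightest probe also lay above 0 under the 75th percentile shift (0.075 relative to all genes).

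The 3 MiT/TFE factors, the main transcriptional regulators of the lysosome, had means at or below 0 (Tfe3 above 0 in 10 of the alternative settings, the deposited processed signals and both other scalings among them). Tfeb had log2 signals of 8.33, 8.27, 8.31 and 8.49 in palmitate-treated cultures, against 8.55, 8.63, 8.55 and 8.62 in control cultures, with every palmitate-treated culture lower. The log2 ratio of -0.24 ± 0.096 (SD, n = 4) did not pass (adjusted p = 0.174 in limma, and 0.113 without replicate 1). It was -0.46 with the deposited processed signals (adjusted p = 0.118 in limma) and -0.48 relative to all genes under the 75th percentile shift (adjusted p = 0.0627 in the methods' unpaired test). Tfe3, its relative, had a mean that did not differ from 0 beyond the spread of the arrays (-0.0020 ± 0.13, SD, n = 4). Mitf had -0.15 ± 0.16 (SD, n = 4) on its brightest probe, and its second probe, dimmer, had -0.36, -1.14, -1.29 and -0.26 on replicates 1 to 4 (mean -0.76 ± 0.53, SD, n = 4, adjusted p = 0.129 in limma). Without replicate 1 that probe fell by 0.90 on the log2 scale (adjusted p = 0.0236). These factors are controlled largely by movement into the nucleus, which RNA levels do not measure.

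**Figure D3:**
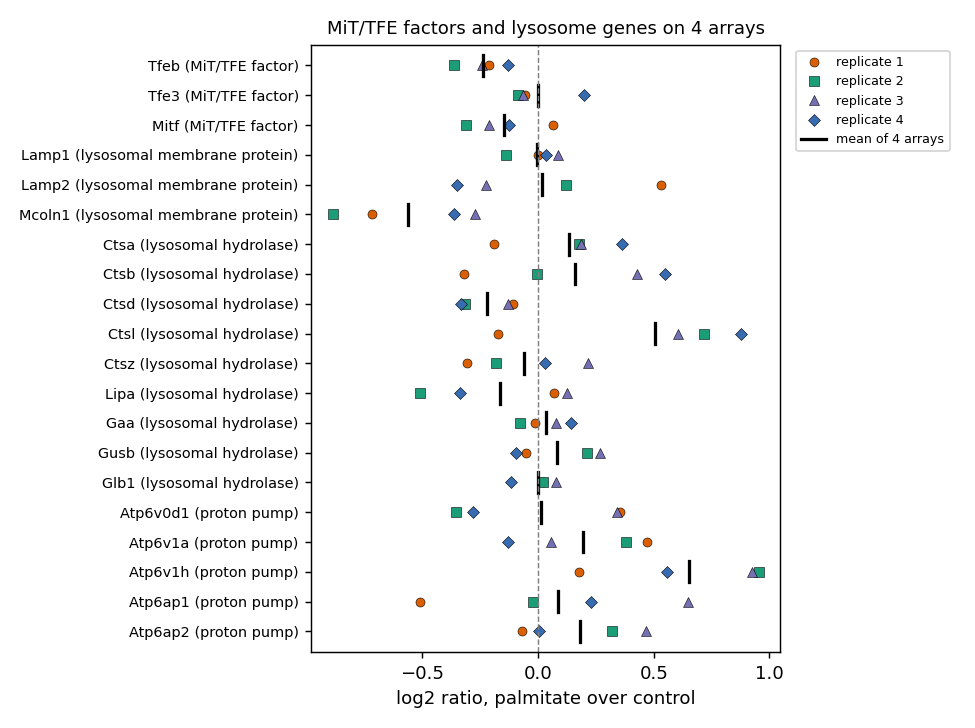
Palmitate over control as a log2 ratio (x axis) of the 3 MiT/TFE factors and the 17 lysosome genes (y axis, with their role), with a point for each of the 4 arrays and a bar for the mean. Most means lie close to 0, with Tfeb, Mcoln1 and Ctsd to the left on 4 of 4 arrays, Atp6v1h to the right on 4 of 4, and Ctsl to the right on replicates 2 to 4 only.

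Among the 3 genes of lysosomal membrane proteins, Mcoln1 was lower with palmitate on every array. Mcoln1, which encodes mucolipin 1, a channel that lets calcium out of the lysosome, had log2 signals of 12.32, 12.13, 12.61 and 12.56 in palmitate-treated cultures, against 13.04, 13.02, 12.89 and 12.92 in control cultures. All palmitate-treated cultures were below all controls, and replicates 1 and 2 differed more than replicates 3 and 4. The log2 ratio was -0.56 ± 0.29 (SD, n = 4, adjusted p = 0.118 in limma), and without replicate 1 it fell by 0.51 on the log2 scale (adjusted p = 0.0431). Its promoter is among the 6 with TCACGTGA.

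Lamp1 and Lamp2, abundant glycoproteins that line the lysosomal membrane, had means close to 0. Lamp1 had log2 ratios of -0.0011, -0.14, 0.085 and 0.034 and a mean of -0.0056 ± 0.097 (SD, n = 4), above 0 relative to all genes under median centring (0.22) and the 75th percentile shift (0.34). Lamp2 had 0.53, 0.12, -0.23 and -0.35, on both sides of 0, with a mean of 0.018 ± 0.40 (SD, n = 4), and without replicate 1 its mean was -0.15. A second, dimmer probe of Lamp2 was above 0 on 4 of 4 arrays (0.29 ± 0.21, SD, n = 4).

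The hydrolases had a median of 0.033. By the unadjusted threshold 1 of 9 was higher and 1 lower (22.2%, against 24.1% of all tested genes). Ctsl, which encodes the cysteine protease cathepsin L, had log2 signals of 15.54, 16.31, 16.15 and 16.32 in palmitate-treated cultures, against 15.71, 15.59, 15.55 and 15.44 in control cultures. Replicates 2 to 4 were above all controls, and replicate 1 lay within their range. The log2 ratio was 0.51 ± 0.47 (SD, n = 4, adjusted p = 0.181 in limma), and without replicate 1 Ctsl rose by 0.73 on the log2 scale (adjusted p = 0.00630). Ctsd, which encodes the aspartic protease cathepsin D, had log2 signals of 14.15, 14.16, 14.06 and 13.91 in palmitate-treated cultures, against 14.26, 14.48, 14.19 and 14.24 in control cultures. The highest palmitate-treated culture and the lowest control were close, and the log2 ratio of -0.22 ± 0.12 (SD, n = 4) did not pass (adjusted p = 0.201 in limma). Under the 75th percentile shift its sign turned (0.029 relative to all genes).

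Ctsb, which encodes cathepsin B, had log2 ratios of -0.32, -0.0046, 0.43 and 0.55, from below 0 to above it, and a mean of 0.16 ± 0.40 (SD, n = 4). The 6 other hydrolases had means between -0.16 and 0.13. They are Ctsa, a carboxypeptidase that also protects other lysosomal enzymes, Ctsz, another cathepsin, Lipa, the acid lipase, Gaa, which cleaves glycogen, and Gusb and Glb1, a glucuronidase and a galactosidase. None of these had an unadjusted p under 0.05 on its brightest probe. The signs of Ctsz, Glb1 and Gaa, whose means were nearest to 0, turned in 5, 6 and 2 of the alternative settings. A dim second probe of Ctsa had -0.038, 0.79, 0.95 and 0.50 on replicates 1 to 4, with a mean of 0.55 ± 0.43 (SD, n = 4, adjusted p = 0.149 in limma), and without replicate 1 it rose by 0.75 on the log2 scale (adjusted p = 0.00899).

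All 5 genes of the proton pump had a mean above 0, as did 6864 of all 13666 tested genes. With the deposited processed signals, with array weights and without replicate 1, 4 of 5 did (Atp6v0d1 below). With the mean of all probes 4 of 5 did (Atp6v1a below), and without replicate 3 only 3 of 5 did (Atp6v0d1 and Atp6ap1 below). Of the 5, 1 had an unadjusted p under 0.05 (20%, against 24.1% of all tested genes). Atp6v1h, a subunit of the cytosolic V1 part that controls its activity, had log2 signals of 10.24, 11.28, 11.02 and 10.86 in palmitate-treated cultures, against 10.06, 10.32, 10.10 and 10.30 in control cultures. Replicate 1 overlapped the controls and the other palmitate-treated cultures were above them. The log2 ratios were 0.18, 0.95, 0.92 and 0.56, a mean of 0.65 ± 0.36 (SD, n = 4) or 1.57-fold (adjusted p = 0.119 in limma), and it rose by 0.81 without replicate 1 (adjusted p = 0.00692). The accessory subunits Atp6ap1 and Atp6ap2 had 0.085 ± 0.48 (SD, n = 4) and 0.18 ± 0.25 (SD, n = 4), and Atp6v0d1, of the membrane V0 part, had 0.015 ± 0.39 (SD, n = 4). Atp6v1a, the subunit that splits ATP, had 0.19 ± 0.28 (SD, n = 4) on its brightest probe and -0.38 ± 0.29 (SD, n = 4) on the other, which fell by 0.51 on the log2 scale without replicate 1 (adjusted p = 0.0155 in limma).

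**Figure D4:**
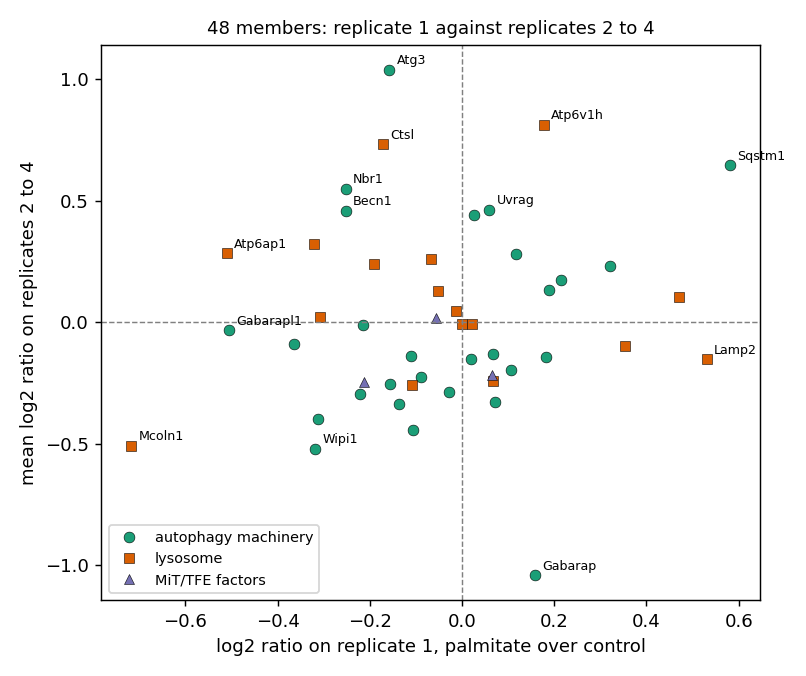
Palmitate over control as a log2 ratio on replicate 1 (x axis) against the mean of replicates 2 to 4 (y axis) for the 48 genes, with a point for each gene and a shape for each class. Sqstm1 and Mcoln1 lie far from 0 on both axes with the same sign, whereas Atg3, Ctsl, Nbr1, Becn1 and Gabarap lie in the quadrants of opposite sign, with 23 of the 48 genes there in all.

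Probes of the same gene were compared where a gene had several. Of the 48 genes, 30 had a single tested probe and 18 had several, with 69 probes in all. Means of the probes lay on both sides of 0 in 3 of these 18 genes (16.7%), Bnip3l, Gaa and Atp6v1a, against 1351 of 3339 tested genes with several probes (40.5%). When all probes of a gene were averaged, the counts were close to those of the brightest probe, with 10 genes higher and 10 lower by the unadjusted threshold, together 20 of 48 (41.7%), against 23.4% of all tested genes. What transcript form each probe reads was not analysed here.

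**Figure D5:**
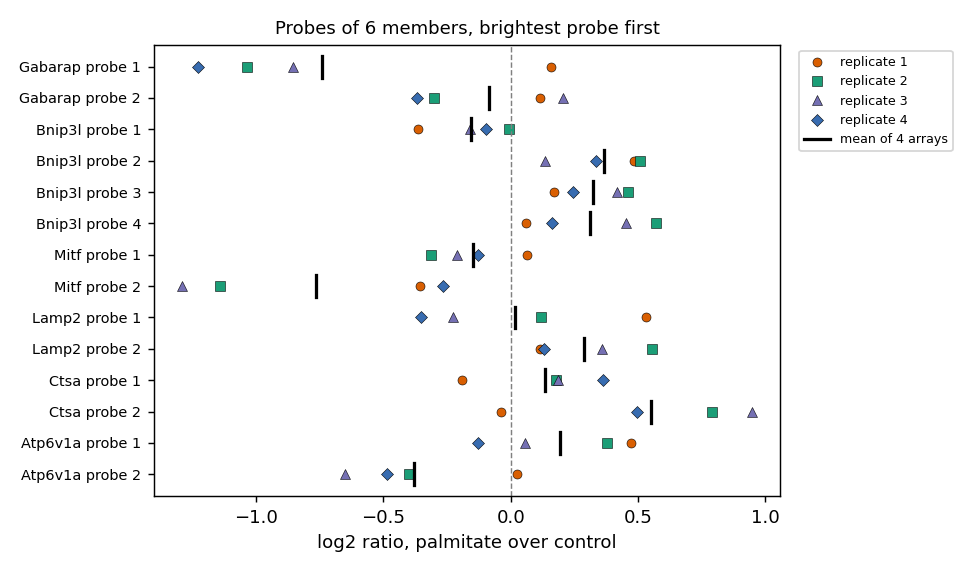
Palmitate over control as a log2 ratio (x axis) of each tested probe of 6 genes (y axis, the brightest probe of a gene as probe 1), with a point for each of the 4 arrays and a bar for the mean. The brightest probe of Bnip3l lies to the left of 0 and its 3 other probes to the right, and the 2 probes of Atp6v1a have means of 0.19 and -0.38.

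Around these 48 genes, 173 of 186 further genes of the pathway were tested, in 5 lists. At an unadjusted p under 0.05, 25 were higher and 27 lower (30.1%, against 24.1% of all tested genes). None passed the adjusted p in limma, and the median log2 ratio of the 173 genes was 0.040. Of 46 other autophagy genes, 6 were higher and 6 lower (26.1%), close to the share of all tested genes. Rb1cc1, the large scaffold that works with Ulk1, had 0.66 ± 0.38 (SD, n = 4), against the opposite sign of Ulk1, and without replicate 1 it rose (adjusted p = 0.00769 in limma). Tax1bp1, another receptor of ubiquitinated cargo, had 0.46 ± 0.25 (SD, n = 4). On the lower side were Vps16, part of a complex that tethers vesicles to lysosomes, with -0.55 ± 0.28 (SD, n = 4), and the SNARE protein Ykt6 with -0.33 ± 0.23 (SD, n = 4).

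Of 45 other hydrolases and their cofactors, 9 were higher and 7 lower (35.6%, against 24.1% of all tested genes). Ppt1, which removes palmitate from proteins, had 0.58 ± 0.25 (SD, n = 4), and Sgsh, which breaks down heparan sulphate, had 0.40 ± 0.18 (SD, n = 4). Lgmn, a protease that cuts after asparagine, had -0.46 ± 0.12 (SD, n = 4). These 3 genes were each on the same side of 0 on 4 of 4 arrays. Without replicate 1, Ppt1 rose and Lgmn fell (adjusted p = 0.0202 and 0.0125 in limma), whereas Sgsh had 0.0530.

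Of 30 other membrane proteins and sorting receptors, 3 were higher and 4 lower (23.3%), close to the 24.1% of all tested genes. Tpcn1, a cation channel of endosomes and lysosomes, had 0.39 ± 0.22 (SD, n = 4) and Laptm4b, a membrane protein of endosomes and lysosomes, had 0.41 ± 0.24 (SD, n = 4), while Tmem175, a channel for potassium and protons, had -0.32 ± 0.19 (SD, n = 4) and the lipid phosphatase Pip4p1 had -0.46 ± 0.40 (SD, n = 4). Of 16 other subunits of the proton pump, 4 were higher and 4 lower (50%). Here Atp6v1e1 and Atp6v1g1, of the V1 part, had 0.55 ± 0.35 and 0.48 ± 0.30 (SD, n = 4), and Atp6v0b and Atp6v0e, of the V0 part, had -0.60 ± 0.35 and -0.69 ± 0.53 (SD, n = 4). Without replicate 1 both V1 genes rose (adjusted p = 0.0119 and 0.00839 in limma) and both V0 genes fell (0.0260 and 0.00700). With all arrays, Atp6v0e was below 0 on 3 of 4. These genes were picked by their low p in each direction, and the V1 gene Atp6v1a had a probe at -0.38. The values therefore do not show that the V1 and V0 parts differ.

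Of 36 genes upstream of autophagy, 3 were higher and 6 lower (25%), close to the 24.1% of all tested genes. Ppp3ca, the catalytic subunit of calcineurin, a phosphatase known to act on Tfeb, had 0.46 ± 0.067 (SD, n = 4), with little spread over the arrays (adjusted p = 0.118 in limma, and 0.0145 without replicate 1). Bcl2l1, which encodes Bcl-xL, a protein that binds Beclin 1, had 0.42 ± 0.18 (SD, n = 4). Mlst8, a subunit of the mTOR complexes, and Lamtor5, part of the scaffold that holds mTORC1 on the lysosome, had -0.51 ± 0.30 and -0.47 ± 0.36 (SD, n = 4).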

How the data were processed

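The authors labelled 1000 ng of total RNA per culture with Cy5 (palmitate) or Cy3 (control), hybridised the pairs to arrays of a single slide and read them with Agilent Feature Extraction 10.7.3.1, per the submitters' processing notes. As deposited, the median signals of spots and of their background are intensity values with no correction, and the processed signals are intensities from which the authors had subtracted background and the dye effect. A deposited table gives the log2 ratio of the processed signals, palmitate over control.

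From the median signals, background was corrected by normexp (offset 50), dyes were normalised by loess within each array, spots marked as outliers (175 to 290 per array) were left out and spots of a probe were averaged (limma 3.58.1, R 4.3.3). A probe entered the test when its palmitate channel or its control channel was well above background on every array, as were 24055 of 39429 (61.0%). RefSeq accessions gave 26055 probes a gene name. The mean of the log2 ratios was tested for a difference from 0 in limma, with Benjamini-Hochberg adjustment over all tested probes. Cultures were paired by the array they share. Exact sign-flip tests over 4 arrays cannot go below a two-sided p of 0.125. The labels call the replicates biological, and 4 arrays limit the precision. The fit was run on simulated ratios with known changes and independent noise, and was required only to return their sign and mean size. No simulated array was made to disagree with the others as replicate 1 does, so this run does not test the calls. Marker genes were checked by the same background rule.

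Values on every array are given for each of the 48 genes with an unadjusted p under 0.05 and for 14 well-known genes of the pathway, and from each further list up to 2 genes per direction with the lowest p, of which 1 is not reported here. Other genes (Nbr1, Map1lc3a, Bnip3l and second probes) were added once their values had been seen. The 48 genes and all lists were chosen with earlier results of these data known. The alternatives changed the background correction, the source of the values, the dye normalisation, the filters, the pairing, the test, the weights, the probe of a gene and the arrays used. The PCR measurements of the study were not analysed here.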

Additional observations from a re-analysis of the deposited data

Results flagged for a closer look

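The log2 ratio of Atg3, the E2-like enzyme of Atg8 conjugation, was -0.16 in palmitate over control on replicate 1, far from the 1.14, 0.99 and 0.99 of replicates 2 to 4, which made this array an outlier among 4. The gap of replicate 1 to the nearest other array took 0.88 of the whole range, above Dixon's critical value for 4 values. Of 27 results examined in this way, 1 was marked, and chance marks about 1 in 20. Replicate 1 also stood apart across all tested probes, and whether the value of Atg3 has the same source was not tested.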

How the results depend on the processing

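With no replicate block, that is with the pairing of cultures by array left out, limma gave 0 genes higher (0.681% of all tested genes) and 2 lower (2.58%) by the unadjusted p, and the methods' t-test gave 0 (1.36%) and 3 (4.70%) from the same signals, in place of 8 (10.8%) and 10 (13.3%). Median centring in place of loess gave 0 (0.512%) and 0 (0.790%), no dye normalisation 4 (1.40%) and 0 (1.08%), and the 75th percentile shift with the methods' t-test 14 (17.2%) and 4 (17.6%). Leaving out 1 array at a time gave 2 to 11 higher and 4 to 13 lower, with 11 (17.8%) and 13 (18.1%) without replicate 1, 3 (4.77%) and 4 (6.70%) without replicate 2, 2 (5.95%) and 5 (9.86%) without replicate 3 and 4 (7.12%) and 4 (8.43%) without replicate 4.

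Values relative to the median of all genes were used where it shifted by over 0.1 on the log2 scale, which was by 0.20 under median centring, 1.01 with no dye normalisation and -0.11 under the 75th percentile shift. The median of the machinery was -0.0027, -0.0027 and 0.079 in these settings and -0.14 to -0.078 with 1 array left out, and that of the lysosome genes was 0.18, 0.18 and 0.25, and 0.017 to 0.070. The sign of 17 of the 48 genes turned in at least 1 alternative, and that of 31 in none. Among the 25 genes chosen by the rule for values on every array, signs turned for Map1lc3b (0.033, 0.033 and 0.11, and -0.14 to 0.033 with 1 array left out), Gabarapl1 (0.022, 0.022 and 0.13, and 0.037 with array weights), Lamp1 (0.22, 0.22 and 0.34, 0.012 with array weights, and -0.036 to 0.039 with 1 array left out), Ctsd (0.029 under the 75th percentile shift) and Lamp2 (-0.16 with array weights, and -0.15 to 0.14 with 1 array left out). The others were Atg5, Atg7, Atg12, Gabarapl2, Bnip3l, Tfe3, Ctsz, Gaa, Glb1, Atp6v0d1, Atp6v1a and Atp6ap1. The cause was not tested.

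Probes past both the adjusted p and a 1.6-fold difference numbered 13 with the deposited processed signals and with the deposited log2 ratios, 20278 with no dye normalisation (no shift taken off), 2 with a limit of 50% on the coefficient of variation of the processed signals in each channel, 1497 under the 75th percentile shift, 824 with array weights, 2 with 1 probe per gene, and 0 to 1297 with 1 array left out, the highest without replicate 1. Array weights gave replicate 1 a weight of 0.42, against 0.85 to 2.46 for the others. With them, 12 of the 48 genes passed the adjusted p in limma, and the share of all tested genes was not counted. Without replicate 1, 12 also passed, 7 higher (8.74% of all tested genes) and 5 lower (9.83%). Atg101 and Atg4b passed only with array weights, and Becn1 and Nbr1 only without replicate 1. In each other setting 0 passed. The limit on variation removed Atg3. Of 499 values of these 25 genes under the alternatives, 461 kept sign and call, 21 passed newly and 17 changed sign. Keeping spots marked as outliers was chosen after seeing the data and gave 8 and 10 genes.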
